A study of Mus musculus with 6 samples.

Results

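The annexin family was followed here in whole mouse kidneys through 10 genes, Anxa1, Anxa2, Anxa3, Anxa4, Anxa5, Anxa6, Anxa7, Anxa9, Anxa11 and Anxa13, found by symbol among the 54146 genes of the deposited count files. The family was selected on the differences in its read counts between the study's labelled groups. Those differences are therefore given as a description, with standard errors (SE) and no p-value. The label KspCre Tfam f/f (3 libraries) stands for floxed Tfam alleles with the Ksp-Cre transgene, whose promoter is active in tubule epithelium, so that other kidney cells would keep the gene. The label Tfam f/f (3 libraries) stands for the floxed alleles with no Cre named. All mice were given as strain B6C3F1/J at postnatal day 84, and poly A+ RNA was sequenced from whole kidney. The labels do not say whether each library is a different animal, so p-values given for other genes rest on variation among libraries that may be technical in origin.

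Annexins are soluble proteins that bind membranes rich in acidic phospholipids, such as phosphatidylserine, when calcium rises. They share a core of repeated domains and differ in their amino-terminal tails, through which several bind S100 proteins. In epithelia they are known for roles in vesicle traffic, membrane repair and the cortical cytoskeleton, and Anxa1 is also known as a secreted ligand that dampens inflammation.

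The targeted gene went against the labels. Tfam, which packages and transcribes mitochondrial DNA, stood at 63.1, 63.5 and 61.4 normalized CPM (counts scaled to library size) in KspCre Tfam f/f-labelled libraries, against 30.3, 33.6 and 23.2 CPM in Tfam f/f-labelled ones. The names of the deposited count files also go against the labels, since those of KspCre Tfam f/f-labelled libraries carry the letters WT and those of Tfam f/f-labelled ones do not. Every direction below is therefore between labels and not between known genotypes. Total gene counts were 30348281 to 48899266 in KspCre Tfam f/f-labelled libraries and 19024208 to 34821537 in Tfam f/f-labelled ones. Tfam f/f-labelled libraries were unlike each other. The summed CPM of 7 injured tubule markers was 1476, 563 and 2382 in their replicates 1, 2 and 3, against 34.7 to 38.8 in KspCre Tfam f/f-labelled libraries. In that sum replicate 3 of Tfam f/f-labelled ones was the highest and replicate 2 the lowest. Much of the sum was Lcn2, with 1068, 321 and 1644 CPM in these replicates. The marker Cdkn1a, at 102, 78.1 and 97.0 CPM, was highest in replicate 1 instead. Folds without replicate 3 are given below for most members. For Anxa3, Anxa1, Anxa9 and Anxa13 those without replicate 2 are given too. Kidney markers were present in every library: 6 proximal tubule markers summed to 11293 to 12505 CPM in KspCre Tfam f/f-labelled libraries and to 1221 to 6117 CPM in Tfam f/f-labelled ones.

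Most annexin transcripts were lower in KspCre Tfam f/f-labelled libraries, Anxa13 was higher there, and Anxa7 stood level. Because whole kidneys were measured, fewer cells of a type and less RNA per cell cannot be told apart for any of these genes. In edgeR's quasi-likelihood fit over 17308 genes, at an adjusted p below 0.05, 8 of the 10 members were called lower, where 24.9% of all tested genes were, and 1 was called higher, where 21.3% were. Nothing is read from these counts, because the family was proposed from this contrast. With any 1 KspCre Tfam f/f-labelled library left out, 5 members were called lower and 1 higher. Calls over all genes also fell in these refits, to 2822 to 2914 lower and 2276 to 2321 higher, from 4310 and 3690. Of the 10 members, 9 had no overlap between the groups, which was also the case for 61.9% of tested genes. The median log2 fold change was -0.87 over the members and -0.03 over all tested genes. Log2 fold changes and folds compare KspCre Tfam f/f-labelled libraries with Tfam f/f-labelled ones on the scale of normalized counts.

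**Figure D1:**
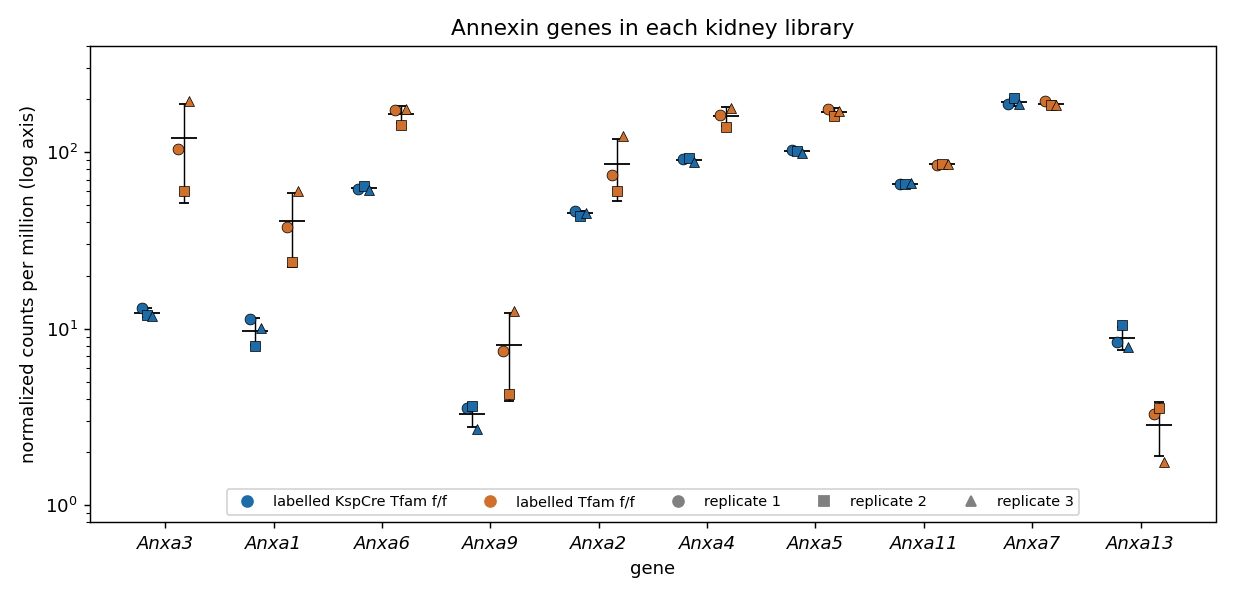
Normalized CPM (log axis) of the 10 annexins in each of the 6 libraries; symbols mark the replicates, and bars are the mean and SD of the 3 libraries of a group. The groups do not overlap except in Anxa7, and Anxa3, Anxa1, Anxa9 and Anxa2 are spread most among Tfam f/f-labelled libraries.

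Anxa3, a calcium-dependent phospholipid-binding protein found in neutrophils and epithelia, had the largest difference of the 10. It had 13.2, 11.9 and 11.9 CPM in KspCre Tfam f/f-labelled libraries, against 104.9, 60.1 and 194 CPM in Tfam f/f-labelled ones. The lowest library labelled Tfam f/f was far above the highest labelled KspCre Tfam f/f. Means were 12.3 ± 0.743 and 119.6 ± 68.0 CPM in this order (SD, n = 3 each). Anxa3 was thus 9.69-fold lower in KspCre Tfam f/f-labelled libraries (log2 fold change -3.28, SE 0.40), and 6.69-fold lower when Tfam f/f replicate 3 was left out. Without Tfam f/f replicate 2 instead, Anxa3 was 11.9-fold lower. The gene (ENSMUSG00000029484.12) lies on the plus strand of chromosome 5, 96793339 to 96845966 in mm10.

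Anxa1, the glucocorticoid-inducible annexin that signals through formyl peptide receptors, came next. It had 11.3, 7.92 and 10.04 CPM in KspCre Tfam f/f-labelled libraries, against 37.5, 23.9 and 60.1 CPM in Tfam f/f-labelled ones. Means were 9.75 ± 1.70 and 40.5 ± 18.3 CPM in this order, without overlap. That made it 4.14-fold lower in KspCre Tfam f/f-labelled libraries (log2 fold change -2.05, SE 0.33), and 3.15-fold lower without Tfam f/f replicate 3. Without Tfam f/f replicate 2 instead, Anxa1 was 4.91-fold lower. Anxa1 (ENSMUSG00000024659.14) lies on the minus strand of chromosome 19, 20373428 to 20390944.

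Anxa2, which joins S100a10 in a complex at the plasma membrane that binds actin and plasminogen, showed a smaller and more variable difference. It had 46.2, 43.4 and 45.3 CPM in KspCre Tfam f/f-labelled libraries, against 74.5, 59.98 and 122.8 CPM in Tfam f/f-labelled ones. The groups did not overlap, but Tfam f/f replicate 3 alone stood above 100 CPM. Anxa2 was 1.90-fold lower in KspCre Tfam f/f-labelled libraries (log2 fold change -0.93, SE 0.24) and 1.498-fold lower without that library. Its locus (ENSMUSG00000032231.14) is on the plus strand of chromosome 9, 69453620 to 69491795.

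Promoter sequence was read from RefSeq (GRCm38.p6, the assembly also called mm10) for members with an entry. Entries were found for 7 of the 10 members, and those without one were Anxa3, Anxa6 and Anxa13. Each window runs from 250 bases before to 50 bases after an annotated start site. Searches on both strands used TGANTCA (AP-1), TGATGNAA (the ATF4 type), the glucocorticoid receptor element, and an NF-kappaB element as GGGANTTCC or in a form 1 base longer. TATAAA (the TATA box) was added after the sequences had been seen. The only matches among the members were in the 3 windows printed here, where capitals mark the matched letters:
Anxa1, chr19:20390622-20390921, minus strand: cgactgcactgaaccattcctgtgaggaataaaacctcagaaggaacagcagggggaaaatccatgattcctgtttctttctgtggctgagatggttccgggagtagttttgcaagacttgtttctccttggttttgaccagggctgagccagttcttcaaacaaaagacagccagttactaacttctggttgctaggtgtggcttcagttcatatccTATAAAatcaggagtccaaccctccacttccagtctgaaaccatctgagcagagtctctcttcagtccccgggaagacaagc
Anxa2, chr9:69453433-69453732, plus strand: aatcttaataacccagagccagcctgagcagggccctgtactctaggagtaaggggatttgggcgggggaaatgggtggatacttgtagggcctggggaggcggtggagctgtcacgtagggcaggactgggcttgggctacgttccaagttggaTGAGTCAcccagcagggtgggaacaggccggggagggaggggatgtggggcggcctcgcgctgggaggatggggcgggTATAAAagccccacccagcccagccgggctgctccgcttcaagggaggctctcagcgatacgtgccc
Anxa4, chr6:86793535-86793834, minus strand: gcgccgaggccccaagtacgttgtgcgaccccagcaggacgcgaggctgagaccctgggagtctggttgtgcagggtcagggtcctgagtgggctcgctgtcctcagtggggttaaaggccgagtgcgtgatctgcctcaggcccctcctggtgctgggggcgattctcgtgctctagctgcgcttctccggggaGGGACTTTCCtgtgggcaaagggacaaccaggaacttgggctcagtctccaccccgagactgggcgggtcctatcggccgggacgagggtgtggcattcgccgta
In Anxa1 the capitals are TATAAA with its first base at position -32 from the start site. In Anxa2 they are an AP-1 match at position -95 and TATAAA at position -17. In Anxa4, in the first of its 2 annotated promoters, they are the longer NF-kappaB form at position -55. Of 32851 promoter windows in the same table, 7.81% held TGANTCA, 13.6% TATAAA and 1.47% the longer NF-kappaB form. No member window held the ATF4-type or the glucocorticoid receptor letters, which were in 3.97% and 0.475% of all windows. A match describes letters in a window and is not a measured binding site.

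Anxa6, the double-length annexin that carries a duplicated core and links membranes to the cytoskeleton and cholesterol transport, differed with little spread. It had 62.1, 64.6 and 61.2 CPM in KspCre Tfam f/f-labelled libraries, against 174, 143 and 176 CPM in Tfam f/f-labelled ones. The gap between the groups was much wider than the range within either one. Anxa6 was 2.63-fold lower in KspCre Tfam f/f-labelled libraries (log2 fold change -1.39, SE 0.11), and 2.54-fold lower without Tfam f/f replicate 3. The gene (ENSMUSG00000018340.13) is on the minus strand of chromosome 11, 54979108 to 55033445.

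Anxa4 and Anxa5 had smaller differences, and Anxa4 was spread more than Anxa5 among Tfam f/f-labelled libraries. Anxa4, an epithelial annexin associated with apical membranes and chloride conductance, had 91.8, 92.1 and 88.2 CPM in KspCre Tfam f/f-labelled libraries, against 163, 139 and 179 CPM in Tfam f/f-labelled ones. It was 1.77-fold lower in KspCre Tfam f/f-labelled libraries (log2 fold change -0.82, SE 0.12). Anxa5, whose protein binds exposed phosphatidylserine and is used as a probe of dying cells, had 103, 101.2 and 98.8 CPM in KspCre Tfam f/f-labelled libraries, against 177, 160.2 and 172 CPM in Tfam f/f-labelled ones. It was 1.68-fold lower in KspCre Tfam f/f-labelled libraries (log2 fold change -0.75, SE 0.10). Neither gene's groups overlapped, and without Tfam f/f replicate 3 the folds were 1.67 for both. Anxa4 (ENSMUSG00000029994.17) lies on chromosome 6, 86736840 to 86793584, and Anxa5 (ENSMUSG00000027712.13) on chromosome 3, 36448923 to 36475894, both on the minus strand.

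Anxa11, which takes part in cytokinesis and tethers RNA granules to lysosomes, had the smallest difference of the 8. It had 65.8, 66.3 and 66.7 CPM in KspCre Tfam f/f-labelled libraries, against 84.2, 86.1 and 85.3 CPM in Tfam f/f-labelled ones. Libraries of a group hardly differed, and the groups stood 1.29-fold apart, lower in KspCre Tfam f/f-labelled ones (log2 fold change -0.36, SE 0.08). Its value is uncertain, because 14.9% of the 75-base windows of its transcripts also occur in Gm2260, Gm2274 or the antisense gene Anxa11os. Anxa11 (ENSMUSG00000021866.15) is on the plus strand of chromosome 14, 25842156 to 25886804.

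Anxa9, an annexin whose core is known to lack typical calcium-binding sites, was scarce and variable. It had 3.57, 3.62 and 2.71 CPM in KspCre Tfam f/f-labelled libraries, against 7.45, 4.24 and 12.5 CPM in Tfam f/f-labelled ones. Tfam f/f replicate 2 stood only just above the highest library labelled KspCre Tfam f/f, and replicate 3 far above it. Anxa9 was 2.42-fold lower in KspCre Tfam f/f-labelled libraries (log2 fold change -1.28, SE 0.37) and 1.75-fold lower without Tfam f/f replicate 3. With Tfam f/f replicate 2 left out instead, Anxa9 was 2.95-fold lower. It lies on the minus strand of chromosome 3, 95296096 to 95307176 (ENSMUSG00000015702.13), and shares 94 exonic bases with 6330562C20Rik on the same strand and 71 with Mindy1 on the opposite strand. Reads in the first overlap are uncertain under any strand setting, and those in the other because the setting is not given in the sources used here.

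Anxa7, or synexin, which promotes membrane fusion in secretion, was the one member whose groups overlapped. It had 188, 203 and 187 CPM in KspCre Tfam f/f-labelled libraries, against 195, 184 and 186 CPM in Tfam f/f-labelled ones. The means were 193 ± 8.96 and 188 ± 5.83 CPM in this order (SD, n = 3 each). Its log2 fold change was 0.03 (SE 0.11), with a 95% interval of -0.22 to 0.28, and its sign turned with upper-quartile factors (-0.04) and with no scaling factor (-0.40). Anxa7 (ENSMUSG00000021814.17) is on the minus strand of chromosome 14, 20455260 to 20480133.

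Anxa13, an annexin of intestinal and renal epithelium known for its lipid-anchored form in apical traffic, ran the other way. It had 8.38, 10.4 and 7.86 CPM in KspCre Tfam f/f-labelled libraries, against 3.27, 3.56 and 1.76 CPM in Tfam f/f-labelled ones. The groups did not overlap, and Tfam f/f replicate 3, the highest library for Anxa1, Anxa2, Anxa3 and Anxa9, was the lowest for Anxa13. That library held 42 Anxa13 counts, with an exact 95% Poisson interval of 30.3 to 56.8 that covers counting error only. Anxa13 was 3.08-fold higher in KspCre Tfam f/f-labelled libraries (log2 fold change 1.62, SE 0.27) and 2.60-fold higher without Tfam f/f replicate 3. With Tfam f/f replicate 2 left out instead, Anxa13 was 3.56-fold higher. The gene (ENSMUSG00000055114.8) is on the minus strand of chromosome 15, 58341471 to 58389244, and GENCODE M21 gives it the biotype processed transcript.

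**Figure D2:**
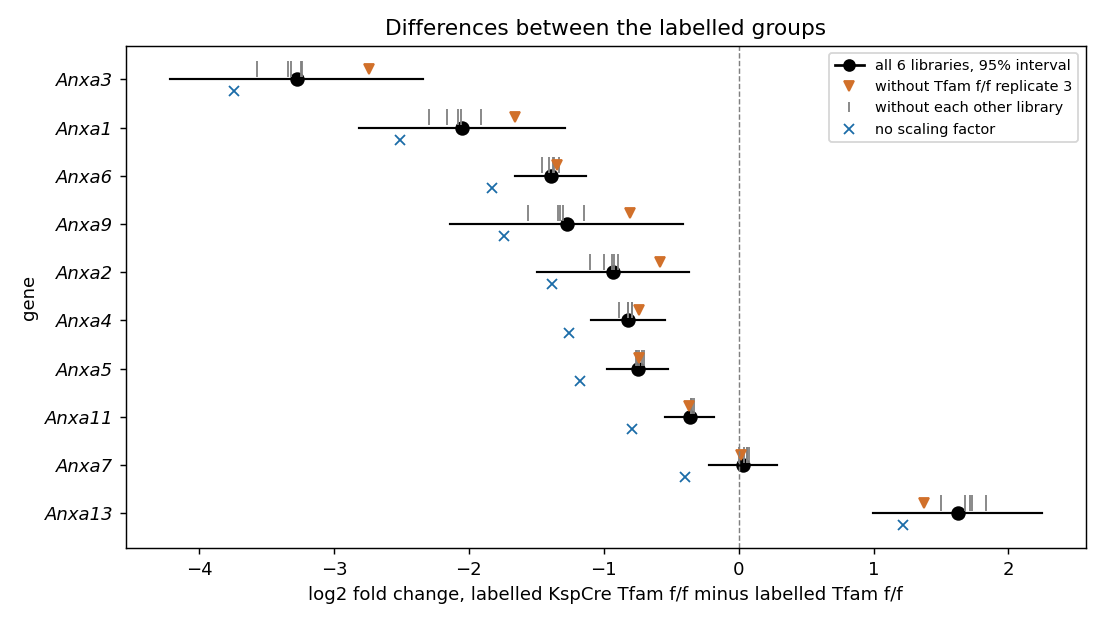
Log2 fold change of each annexin, labelled KspCre Tfam f/f minus labelled Tfam f/f, with its 95% interval (circle and line), and the value with each library left out or with no scaling factor. Anxa3 at -3.28 and Anxa13 at 1.62 are the ends of the range, and Anxa3, Anxa1, Anxa9 and Anxa2 move most when Tfam f/f replicate 3 is left out.

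The size of these differences depends on the scaling. With no scaling factor, the median log2 fold change of all tested genes moved to -0.46, from -0.03 with the TMM factors used here. Relative to that shift the order of the members held. Anxa3 was then at -3.74 and Anxa13 at 1.22.

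The remaining annexin symbols in the files were scarce or absent. Anxa8 had 0.916, 0.870 and 0.763 CPM in KspCre Tfam f/f-labelled libraries, against 0.147, 0.527 and 1.55 CPM in Tfam f/f-labelled ones, so the groups overlapped. It passed the filter and was not called (log2 fold change 0.24, SE 0.64). Anxa10 had no count in KspCre Tfam f/f-labelled libraries, against 2, 2 and 1 counts in Tfam f/f-labelled ones. The antisense gene Anxa11os had 1 count in all, and the pseudogenes Anxa11-ps1 and Anxa11-ps2 had none. Some members share a few exonic bases with other genes: Anxa2 shares 98 with Gm16144 and Anxa4 75 with Gm44036, both on the opposite strand, and Anxa3 shares 112 with Gm42603 on the same strand.

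Levels were compared between genes as CPM per kilobase of exon. In KspCre Tfam f/f-labelled libraries, Anxa5 had the highest level, with a mean of 56.9 ± 1.22 CPM per kilobase. It was followed by Anxa7 (32.2), Anxa6 (21.4), Anxa4 (19.5), Anxa11 (16.0), Anxa2 (12.1) and Anxa13 (6.60). Anxa3 (3.38) and Anxa1 (3.35) came next with overlapping ranges, and Anxa9 was last at 1.59. Every other pair of neighbours in that order had separate ranges. In Tfam f/f-labelled libraries, Anxa5 (95.4 ± 4.78) stood apart from all others. Anxa6 (56.2 ± 6.26) was next, and its range overlapped that of Anxa3 but not that of Anxa4, its neighbour in the order. From Anxa4 on each range overlapped the next, through Anxa4 (34.5), Anxa3 (32.8), Anxa7 (31.4), Anxa2 (22.98), Anxa11 (20.6) and Anxa1 (13.9). Anxa9 (3.90) and Anxa13 (2.12) shared the bottom and overlapped each other.

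The family's summed level was 174, 176 and 169 CPM per kilobase in KspCre Tfam f/f-labelled libraries, against 315, 266 and 361 in Tfam f/f-labelled ones. Its make-up differed with it. Anxa3 made up 1.96% ± 0.112 of the summed level in KspCre Tfam f/f-labelled libraries and 10.03% ± 4.34 in Tfam f/f-labelled ones (SD, n = 3 each). Anxa7 made up 18.6% ± 0.637 and 10.2% ± 1.49 in the same order, and Anxa13 made up 3.81% ± 0.517 and 0.708% ± 0.319. Anxa4 held nearly the same share in both groups, 11.3% ± 0.0597 in KspCre Tfam f/f-labelled libraries and 11.02% ± 0.312 in Tfam f/f-labelled ones. The share of Anxa5, the largest, was 32.9% ± 0.483 and 30.8% ± 3.63 in the same order.

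**Figure D3:**
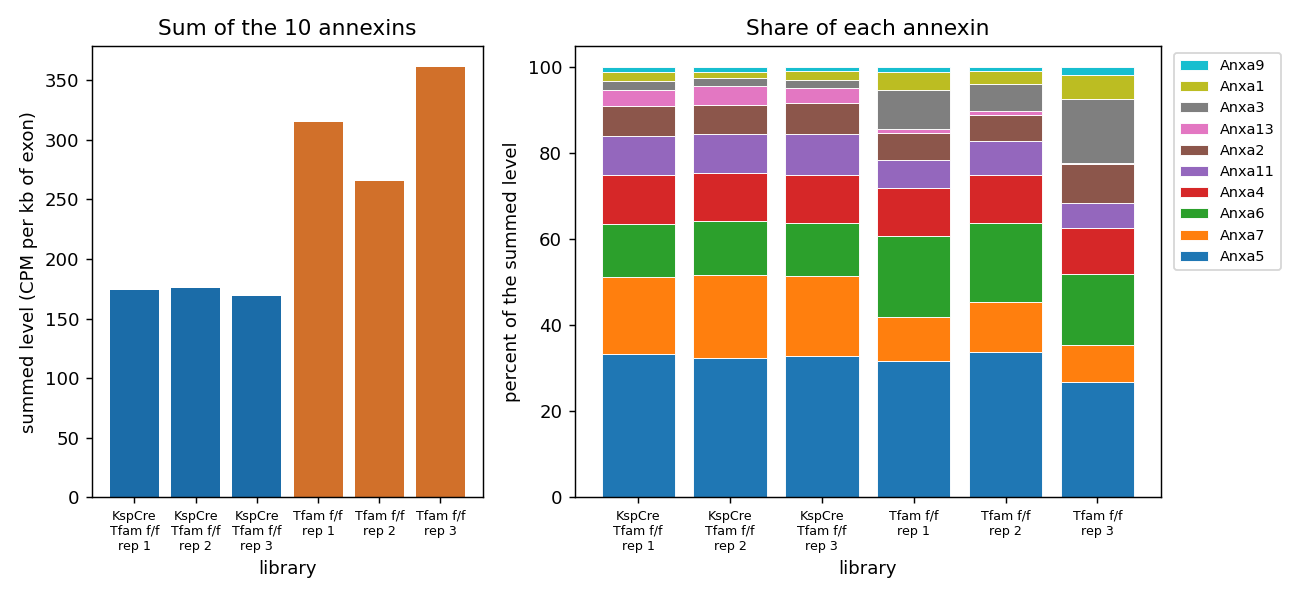
Left, summed level of the 10 annexins (CPM per kilobase of exon) in each library; right, each annexin's percent of that sum. KspCre Tfam f/f-labelled libraries are alike, at 169 to 176, and Tfam f/f-labelled ones have larger Anxa3 and smaller Anxa7 and Anxa13 shares.

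Members varied unequally within a group. The SD of log2 CPM over the 3 libraries had a median of 0.06 over the members in KspCre Tfam f/f-labelled ones and 0.36 in Tfam f/f-labelled ones, beside 0.10 and 0.26 over all tested genes in the same order. In 9 of the 10 members it was larger in Tfam f/f-labelled libraries, the exception being Anxa7. Within those libraries, replicate 3 over replicate 2 was 3.22-fold for Anxa3, 2.96-fold for Anxa9, 2.51-fold for Anxa1 and 2.05-fold for Anxa2. The same ratio was 1.07 for Anxa5, 1.0097 for Anxa7 and 0.991 for Anxa11. Anxa1, Anxa2, Anxa3, Anxa4, Anxa6 and Anxa9 were highest in replicate 3 and lowest in replicate 2, an order that 23.6% of tested genes had. Anxa13 had the opposite order, as had 21.7% of tested genes.

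After each group's mean was removed, the log2 CPM of these 6 annexins went together over the 6 libraries, with Pearson's r of 0.71 to 0.98 over their 15 pairs. Anxa13 had r of -0.93 to -0.46 with them. These genes were picked by their order among Tfam f/f-labelled libraries, so the signs of these coefficients largely follow from that choice. Pairs with Anxa5, Anxa7 or Anxa11 had r from -0.94 (Anxa11 with Anxa5) to 0.88 (Anxa5 with Anxa6). These coefficients describe 6 libraries that share their depth and scaling between genes. Most of the variation behind them comes from the 3 labelled Tfam f/f, except in Anxa7. Its SD of log2 CPM was 0.066 in KspCre Tfam f/f-labelled libraries and 0.044 in Tfam f/f-labelled ones. Marker sums moved in the same libraries. The sum of 8 macrophage markers was 143, 129.9 and 130.2 CPM in KspCre Tfam f/f-labelled libraries, against 248, 171 and 526 CPM in replicates 1, 2 and 3 of Tfam f/f-labelled ones. Of these sums, Csf1r alone held 79.9, 77.9 and 81.4 CPM in KspCre Tfam f/f-labelled libraries, against 57.4, 48.4 and 86.2 CPM in Tfam f/f-labelled ones. Its mean was thus higher in KspCre Tfam f/f-labelled libraries, unlike that of the other 7 markers. Cd68, a macrophage lysosomal protein gene, had 3.05, 2.87 and 3.01 CPM in KspCre Tfam f/f-labelled libraries, against 11.1, 7.40 and 18.3 CPM in Tfam f/f-labelled ones. Lcn2, a secreted marker of tubule injury, had 2.58, 2.30 and 2.90 CPM in KspCre Tfam f/f-labelled libraries, against 1068, 321 and 1644 CPM in Tfam f/f-labelled ones. Both had the same order of Tfam f/f replicates as Anxa3, as had Havcr1, the injury marker Kim-1, which had 2.28, 2.25 and 2.14 CPM in KspCre Tfam f/f-labelled libraries, against 31.7, 9.88 and 138 CPM in Tfam f/f-labelled ones. Of the macrophage markers, 7 were called lower in KspCre Tfam f/f-labelled libraries and Csf1r was not called. All 7 injured tubule markers were called lower there and all 6 proximal tubule markers higher. Of all tested genes, 21.3% were called higher in KspCre Tfam f/f-labelled libraries and 24.9% lower. With lists this short, nothing is read from a single count. Among other cell types, 5 of 5 intercalated cell, 3 of 5 thick ascending limb and 3 of 4 distal convoluted tubule markers were called higher. So were 4 of 6 mural cell and 3 of 5 podocyte markers in KspCre Tfam f/f-labelled libraries. There 3 of 5 principal cell, 4 of 6 fibroblast, 1 of 6 T and NK cell and 1 of 3 tested B cell markers were called lower, and 0 of 6 endothelial markers were called by edgeR in either direction, with 1 of them, Emcn, at an unadjusted p below 0.05. Of 5 neutrophil markers found in the files, S100a9 and Csf3r were called lower and the others were not tested, and their sum reached 12.7 CPM at most, in Tfam f/f replicate 3. No marker of the 14 cell type lists was at 0 in all libraries, and the part of these cells in the annexin differences was not tested.

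**Figure D4:**
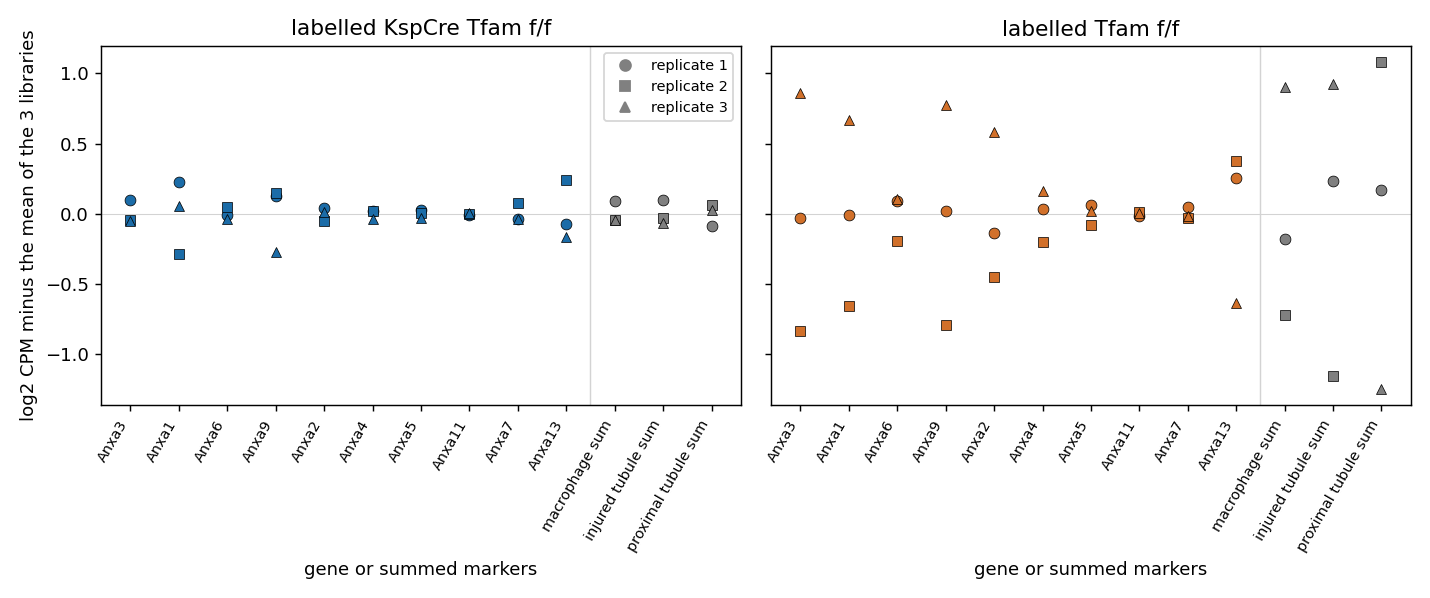
Log2 CPM of each annexin, and of the summed macrophage, injured tubule and proximal tubule markers, minus the mean of the group's 3 libraries. Among Tfam f/f-labelled libraries, replicate 3 is highest and replicate 2 lowest for Anxa3, Anxa1, Anxa9 and Anxa2 and for the macrophage and injury sums, and the reverse holds for Anxa13 and the proximal tubule sum.

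Many genes had nearly the same profile as a member. Likeness was Pearson's r of log2(CPM + 0.5) over 11946 tested genes averaging 2 or more in log2 CPM. The genes nearest to Anxa3 over the 6 libraries were Hap1 and Stat3, both with r of 0.999. In all 339 genes had r above 0.99 with it. The nearest to Anxa1 were Exosc1 and Obsl1 (0.9997 and 0.998), with 117 genes above 0.99, and those to Anxa2 were Fbxw17 and Gmip, with 101. For Anxa4 they were Micall2 and Vasp, with 385 genes above 0.99, for Anxa5 Zfp651 and Plin3, with 265, and for Anxa6 Jpt2 and Sh3bp4, with 329. For Anxa11 they were B4galnt2 and Nars, with 105 genes above 0.99, and for Anxa13 Neu1 and Athl1, with 166. The scarce Anxa9 was nearest to Ttc5 and Ubd (0.998 and 0.997), with 24 genes above 0.99. The flat Anxa7 was nearest to Prcc (0.9746) and RP23-12I24.9 (0.962). No gene exceeded 0.99 with Anxa7. With 6 libraries and 2 labelled groups, such coefficients are common and describe these libraries only.

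Of 18 genes whose products bind annexins or act with them, 17 were tested in the same fit. In KspCre Tfam f/f-labelled libraries 10 were called lower, 1 higher and 6 were not called, beside 24.9% of all tested genes called lower and 21.3% higher. Their median log2 fold change was -0.50, beside -0.03 over all tested genes. The list was chosen with earlier results known, so the count is a description. The calcium channel gene Trpv5, whose surface delivery depends on the S100a10 and Anxa2 complex, had 39.3, 34.9 and 31.1 CPM in KspCre Tfam f/f-labelled libraries, against 159, 158 and 169 CPM in Tfam f/f-labelled ones. It was 4.62-fold lower in KspCre Tfam f/f-labelled libraries in all 3 of them (SE 0.12 in log2, edgeR adjusted p = 4.07e-05). Pla2g4a, the cytosolic phospholipase that annexins can inhibit, was 2.94-fold lower (SE 0.14, edgeR adjusted p = 0.000304), again with no overlap. The S100a6 gene, for a partner of Anxa11, was 5.66-fold lower (SE 0.24, edgeR adjusted p = 0.000416), and Ahnak, a large scaffold held by the S100a10 and Anxa2 complex, 2.25-fold lower (SE 0.18, edgeR adjusted p = 0.00221).

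Some partners were picked for their role after their values had been seen. S100a10 had 59.96, 64.3 and 54.1 CPM in KspCre Tfam f/f-labelled libraries, against 97.1, 67.9 and 87.5 CPM in Tfam f/f-labelled ones, a 1.41-fold difference (SE 0.14 in log2, edgeR adjusted p = 0.024). S100a11, which binds the tail of Anxa1, was 2.60-fold lower in KspCre Tfam f/f-labelled libraries (SE 0.23, edgeR adjusted p = 0.00344). The formyl peptide receptor genes Fpr1 and Fpr2 were below 1 CPM in every library, and both were called lower there. Tgm2, a transglutaminase, was the 1 partner called higher, 1.32-fold (SE 0.11, edgeR adjusted p = 0.0225), and it lost the call with the replicate number as a block or without any single library labelled KspCre Tfam f/f.

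Membrane repair genes went both ways. Of 16 tested, 6 were called lower, 5 higher and 5 were not called in KspCre Tfam f/f-labelled libraries, with a median log2 fold change of 0.01. Of all tested genes, 24.9% were called lower and 21.3% higher, so these counts are a description only. Myof, for myoferlin, had 34.3, 34.8 and 35.5 CPM in KspCre Tfam f/f-labelled libraries, against 261, 236 and 352 CPM in Tfam f/f-labelled ones, and was 8.10-fold lower (SE 0.17 in log2, edgeR adjusted p = 6.08e-05). The calpain genes Capn1 and Capn2, for calcium-activated proteases, were 2.75-fold (SE 0.08) and 1.79-fold (SE 0.11) lower. Those higher were Syt7, a calcium sensor of lysosome fusion (2.62-fold, SE 0.23), Ehd1, Cav1, Smpd1 and Vps4a, of which only Syt7 was named by rule.

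Another list held genes that affect the exposure of phosphatidylserine, the lipid that Anxa5 binds, in either direction, or that bind it. These were also split, with 7 of 17 tested called lower and 5 higher in KspCre Tfam f/f-labelled libraries. The shares over all tested genes were 24.9% lower and 21.3% higher. Mfge8, for a bridging protein in the uptake of dying cells, was 2.41-fold lower (SE 0.13 in log2, edgeR adjusted p = 0.000458). Those higher included the flippase gene Atp11a (4.40-fold, SE 0.26), the scramblase family gene Plscr4 (2.76-fold, SE 0.26) and the uptake receptor gene Mertk (2.08-fold, SE 0.18). Of 12 glucocorticoid targets, a class to which Anxa1 belongs, 5 were called higher in KspCre Tfam f/f-labelled libraries, where 21.3% of all tested genes were. They were Tsc22d3 (1.88-fold, SE 0.15), Errfi1 (2.58-fold, SE 0.24), Klf9 (2.06-fold, SE 0.20), Sgk1 and the receptor gene Nr3c1. Zbtb16 was called lower (3.20-fold, SE 0.22) and 6 were not called. The median log2 fold change of these targets was 0.24, and a link to the Anxa1 difference was not tested.

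**Figure D5:**
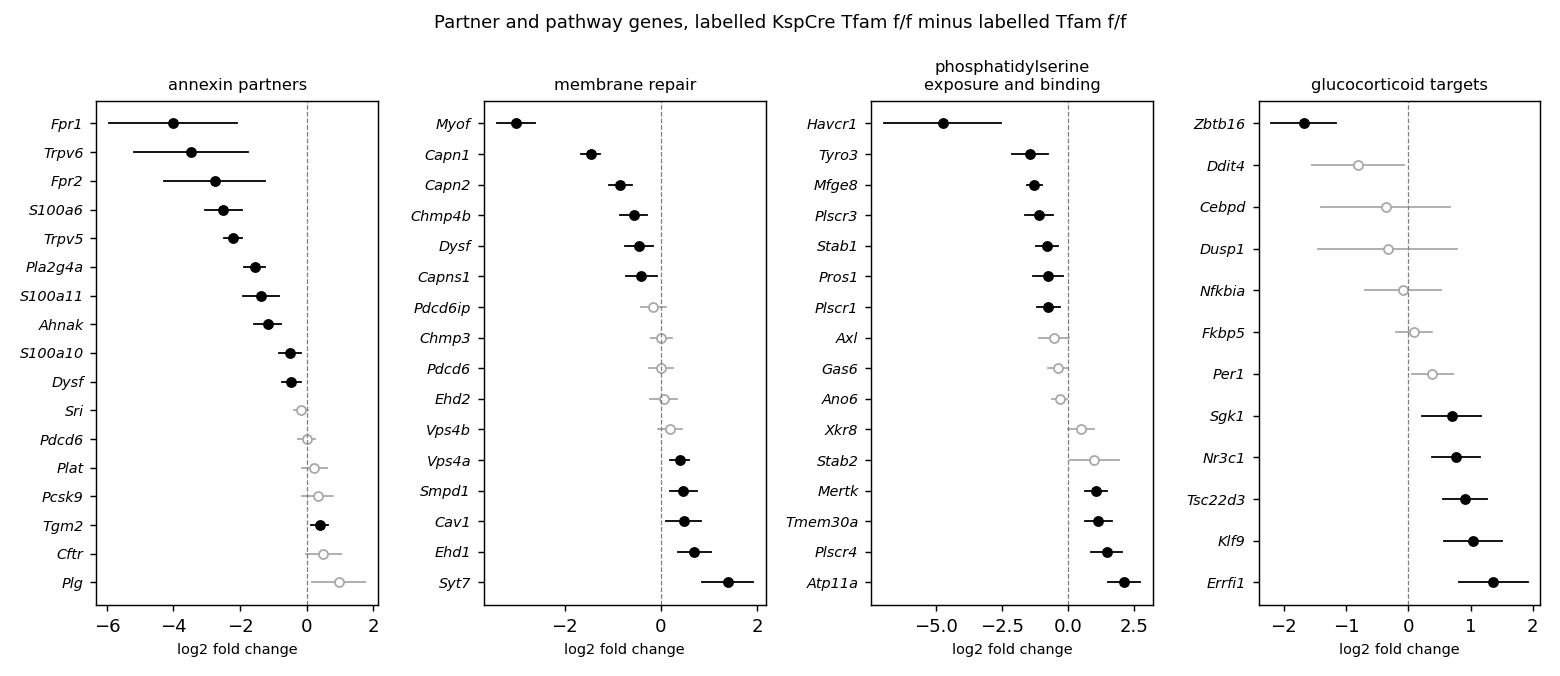
Log2 fold change, labelled KspCre Tfam f/f minus labelled Tfam f/f, with 95% intervals, for tested genes of 4 lists; filled black circles were called at an adjusted p below 0.05 and open grey ones were not. Among annexin partners 10 are called lower and 1 higher, and the other lists have calls on both sides.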

How the data were processed

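Whole-kidney RNA was made into stranded poly A+ libraries, per the labels' protocols. The authors deposited raw counts per gene. The submitters' processing notes name FastQC, Trim Galore, STAR 2.4.1d, HTSeq 0.11.0 and build mm10; which annotation and strand setting served for counting is not given in the sources used here. The summary lines of each file, 16.0% to 20.4% of its total, were left out.

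Genes passing filterByExpr (at least 10 counts, total 15) were scaled by TMM and tested with edgeR 4.0.16 in R 4.3.3 (quasi-likelihood, Benjamini-Hochberg over 17308 genes), a procedure first tested on simulated data. CPM use the same factors, and exon lengths come from GENCODE M21. No library was a duplicate: chi-square per degree of freedom was 6.57 or more for every pair within a group. The alternatives were DESeq2 1.42.0, limma 3.58.1 (voom), other scalings and filters, a replicate block and leaving out each library. Members and lists were chosen with earlier results of these data known. All members were named, and from each list up to 4 called genes with the smallest p. Protein sequences were not used here. Of the phosphatidylserine list, 1 gene kept in its counts is not reported here.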

Additional observations from a re-analysis of the deposited data

How the results depend on the processing

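The family was proposed from this contrast, so the tallies of its calls describe sensitivity to processing and do not support the calls. The 10 annexin log2 fold changes were recomputed under 14 alternatives each, 140 values in all. Of these, 127 kept their direction and side of the threshold and 11 lost the call. Those 11 were Anxa2 and Anxa11 without any 1 library labelled KspCre Tfam f/f, and Anxa9 without any of these, without Tfam f/f replicate 1 and with limma voom. The other 2 were Anxa7, whose log2 fold change turned to -0.042 with upper-quartile factors and -0.40 with no scaling factor, where it was called lower. Leaving out 1 library gave 5 to 8 members called lower, 2276 to 4652 genes higher and 2822 to 4942 lower, 0 to 3 partners higher, 3 to 5 membrane repair genes higher and 3 to 6 lower, and 1 to 2 glucocorticoid targets lower in KspCre Tfam f/f-labelled libraries. The lowest values of the gene and member counts came without a library labelled KspCre Tfam f/f.

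With no scaling factor 9 members were called lower, against 8, and 1680 genes were higher and 8519 lower, against 3690 and 4310; partners higher were 0, membrane repair genes 1 higher and 10 lower, glucocorticoid targets 3 higher and 2 lower, and the log2 ratio of summed annexin CPM was -1.23 against -0.79. That scaling by its construction leaves the median shift of all genes in place. With RLE factors and with limma voom 2 partners were higher, and with DESeq2 2 glucocorticoid targets were lower. A minimum fold of 1.5 left 3 members called lower and 1 higher. Over all genes it left 1116 higher and 1824 lower, 17% of those tested. With the replicate number as a block 3227 genes were higher and 3586 lower, 8 members lower and 0 partners higher, and no member changed its call. The numbers showed no sign of pairing libraries. Deviations of same-numbered libraries correlated at -0.22, -0.07 and -0.06, and 0 of 6 libraries correlated best with its own number. With 3 libraries per group a weak pairing could go unseen. Where the cause of a change is not named, the cause was not tested.

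The lowest count of a member in a library was 42, for Anxa13 in Tfam f/f replicate 3.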

Other observations

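The ratio of an annexin to its S100 partner, per kilobase of exon, differed between pairs. Anxa2 over S100a10 was 0.250, 0.220 and 0.272 in KspCre Tfam f/f-labelled libraries, against 0.249, 0.287 and 0.456 in Tfam f/f-labelled ones, so the groups overlapped. Anxa11 over S100a6 was 1.96, 2.30 and 2.04 in KspCre Tfam f/f-labelled libraries, against 0.459, 0.720 and 0.360 in Tfam f/f-labelled ones, without overlap. Anxa1 over S100a11 was 0.0218, 0.0145 and 0.0185 in KspCre Tfam f/f-labelled libraries, against 0.0222, 0.0270 and 0.0376 in Tfam f/f-labelled ones. These pairs were chosen after the values had been seen and were not tested.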
